A study of Mus musculus with 4 samples.

Results

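The cytosolic ribosomal protein genes, which encode the protein part of the ribosome that translates nuclear mRNA, were followed in sorted cells of the newborn mouse cochlea. The members were the genes whose symbol is Rpl or Rps with a number and at most a short suffix, or is Rplp0, Rplp1, Rplp2 or Rpsa. This gave 84 of the 23420 genes listed, 51 of the large subunit and 33 of the small subunit. Genes for the Rps6 kinases are not among them. In 81 of the 84, at least 100 reads over the 12 replicates allowed a test, and 16088 genes were tested in all. The other 3 are paralogs at or near the lowest possible value: Rpl10l had 0 reads in all replicates together, Rpl39l 16 and Rpl3l 35.

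Cochleae of CD1 mice carrying the Atoh1-GFP transgene, in which an Atoh1 enhancer drives GFP in hair cells, were taken at postnatal day 1 and cultured. All 4 groups share the transgene, the strain and the culture, and they differ in the sorted population and in the drug. Hair cells (HC) were GFP positive and non-hair cells (NHC) GFP negative, each without drug or after 3 h in 0.5 mM gentamicin, with 3 replicates a group. NHC are a mixture of supporting cells, cells of both epithelial ridges and surrounding tissue, and cells with weak GFP were gated out of the HC. Each replicate is a sort of many cells, so that p-values measure the spread between such sorts. The main fit pools this spread over the 4 groups. SEs and p-values for HC thus also carry the spread of NHC, which was larger for the members. The median SD of a member was 0.0842 and 0.157 in control and treated HC, and 0.273 and 0.246 in control and treated NHC (log2 scale).

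Each deposited score is the number of reads on a gene, scaled by the authors for each replicate, with 1 added, and it is not divided by gene length. Between 22399692 and 28151298 reads per replicate were recovered from the scores, and in the shallowest replicate 554751 of them fell on the members. Marker sums are of scores less 1. The 7 hair cell markers found of 8 listed summed to 10844–11284 in control HC, 9102–10134 in treated HC and 229–255 in control NHC. The 6 mesenchyme markers summed to 193–472 in control HC, 107–159 in treated HC, 5109.9–6891 in control NHC and 5863–9370.3 in treated NHC. No marker was at the lowest value in every replicate.

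Ribosomal protein genes are among the most highly expressed genes of growing cells. Their mRNAs begin with a run of pyrimidines, the 5′ terminal oligopyrimidine or TOP motif, through which mTORC1 and the binding protein Larp1 control their translation. Nearly all of the proteins are needed in equal amounts, and gentamicin is an aminoglycoside, a class of antibiotics that bind ribosomal RNA. Some members have paralogs that differ in tissue or in regulation, among them Rpl22l1, Rpl7l1 and Rps27l.

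The starts of some members are shown because the pyrimidine run is the sequence feature for which these genes are known. Each line holds 60 bases of the RefSeq promoter table (GRCm38.p6), 30 before and 30 from the annotated start onward, written 5′ to 3′ on the gene's strand, with the longest pyrimidine run of the window in capitals. Rpl7a, Rpl35, Rpl11 and Rpl15 are shown for their long runs, Rpl27a, Rps26 and Rps4x for their large falls in treated HC, and Rpl22l1 and Rpl7l1 as paralogs that were not called lower. Rplp0 and Rpl10, with falls nearly as large, are not shown, and their longest runs were 7 and 4 bases.
Rpl7a, chr2:26910777-26910836, plus strand: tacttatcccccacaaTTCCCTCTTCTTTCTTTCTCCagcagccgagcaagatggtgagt
Rpl35, chr2:39005102-39005161, minus strand: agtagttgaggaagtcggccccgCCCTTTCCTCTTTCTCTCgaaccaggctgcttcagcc
Rpl11, chr4:136053364-136053423, minus strand: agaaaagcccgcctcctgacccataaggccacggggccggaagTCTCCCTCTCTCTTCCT
Rpl15, chr14:18270957-18271016, minus strand: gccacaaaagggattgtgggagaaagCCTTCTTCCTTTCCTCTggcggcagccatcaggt
Rpl27a, chr7:109519165-109519224, plus strand: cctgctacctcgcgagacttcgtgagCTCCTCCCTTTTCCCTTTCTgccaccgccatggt
Rps26, chr10:128626477-128626536, minus strand: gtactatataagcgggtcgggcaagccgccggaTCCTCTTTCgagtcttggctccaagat
Rps4x, chrX:102189362-102189421, minus strand: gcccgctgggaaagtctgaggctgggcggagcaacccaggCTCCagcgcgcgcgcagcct
Rpl22l1, chr3:28805478-28805537, plus strand: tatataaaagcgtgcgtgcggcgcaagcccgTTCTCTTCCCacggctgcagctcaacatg
Rpl7l1, chr17:46782627-46782686, minus strand: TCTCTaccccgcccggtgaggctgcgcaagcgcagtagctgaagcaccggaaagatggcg

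A promoter row was found for 60 of the 81 tested members. The longest run had a median of 9 bases in the members and 6 in all 27025 genes of the table. A run of 8 or more pyrimidines on the sense strand lay in the 60-base window of 34 members, 56.7%, and of 25.8% of all genes, the same share as in the 11659 tested genes of the table. CCGGAAG, letters of the core bound by ETS factors such as Gabpa, occurred on either strand within the 300-base promoter of 41.7% of the members, 9.93% of all genes and 17.1% of the tested genes. CTTTCC on the sense strand, which can lie inside a pyrimidine run, occurred in 40%, 16% and 16.9%. AAGATGG, letters of the YY1 motif, occurred on either strand in 16.7%, 7.28% and 7.74%, and TATAAA on the sense strand in 10%, 9.77% and 5.76%, in the same order. AAGATGG also contains ATG, the letters of a start codon, and in the windows of Rpl7a and Rpl7l1 above it lies after the annotated start. Its use as a YY1 site was not tested. An annotated start can lie off the start used in these cells, so that a window without a run says only that these letters are not in it. The 34 members with a run and the 26 without had the same median log2 difference in treated HC, -0.43.

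In HC, most ribosomal protein mRNAs lay lower after gentamicin, each by a small amount. Of the 81 tested members, 76 lay below 0 on the log2 scale, with a median of -0.43, against -0.09 for all tested genes. By the criteria of an unadjusted p under 0.01 and a fold above 1.2, 26 members fell and 1 rose, with 14.8% of all tested genes called lower and 12.7% called higher. The 26 made up 32.1% of the tested members. At a Benjamini-Hochberg adjusted p under 0.05 from limma, 45 members were lower, 55.6% of those tested, where 18.4% of all tested genes were. In 73 of 81 members all 3 treated replicates lay under all 3 controls, which held for 33.1% of all tested genes, and in 2 members they lay above, against 21.7%. The median difference corresponds to a 1.35-fold lower level. The count of members past the criteria turned on the scaling, on the groups that shared the fit and on single replicates. With scaling to the total of all genes 4 fell and 1 rose, with a median of -0.34. With the compared groups alone 70 fell, with the median unchanged at -0.43. It was 1 without treated replicate 3, 2 without control replicate 1, control replicate 2 or treated replicate 2, and 40 without treated replicate 1. The direction of the median was negative under every alternative tried.

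The share of recovered reads, which does not depend on how replicates were scaled, gives the same picture in single values. In control HC the 84 members took 2.71, 2.74 and 2.48% of the reads, and in treated HC 2.37, 1.96 and 1.95%. The treated values all lie under the control values, and the first treated replicate is the nearest to them. The means were 2.64% ± 0.14 (SD, n = 3) and 2.09% ± 0.24 (SD, n = 3). In control NHC the share was 6.19, 4.58 and 4.46%, and in treated NHC 5.61, 5.06 and 4.08%. These groups overlap, with means of 5.08% ± 0.97 and 4.92% ± 0.78 (SD, n = 3 each). Control HC thus gave these genes 0.520 of the share that control NHC gave them. In bulk samples fewer cells of a type and less RNA per cell cannot be told apart, nor can a lower share of reads and more RNA of other genes.

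**Figure D1:**
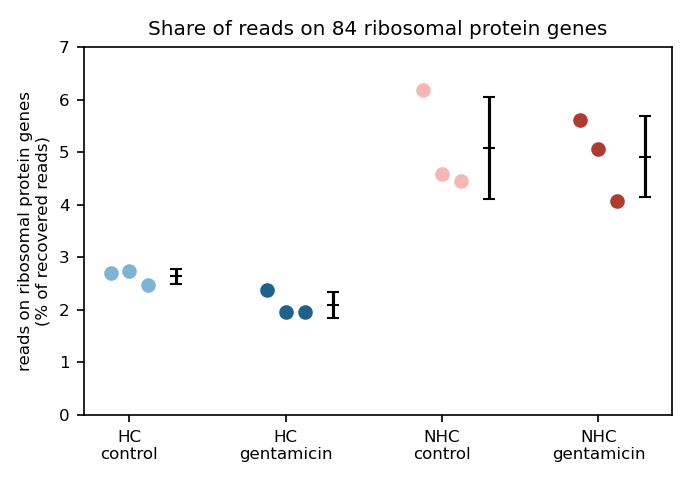
Percent of recovered reads on the 84 ribosomal protein genes (y axis) in each replicate (points) of the 4 groups, with mean ± SD (black). Treated HC lie between 1.95 and 2.37%, under the control HC at 2.48–2.74%, while the NHC groups overlap between 4.08 and 6.19%.

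Markers of hair cells and of other cells also moved between the HC groups. The summed hair cell markers were lower in every treated HC replicate than in every control, as given above. The single markers did not move together. Mean scores fell from 3899 to 2889 in Otof, 1657 to 1384 in Myo7a, 4369.7 to 4124 in Myo6 and 311 to 232 in Pvalb. Atoh1 rose from 209 to 296 and Gfi1 from 266 to 302, both without overlap, and Pou4f3 was at 424 and 421. The 10 supporting cell markers summed to 1692–1963 in control HC and 899–1418 in treated HC, and the 3 glia markers to 137–171 and 59.5–114. In NHC the supporting cell markers summed to 1174–1824 without and 870.2–1479 with the drug, ranges that overlap those of HC. They did not enter the estimate of other RNA given below, in which supporting cells thus have no markers of their own. The glia sum, which did enter it, was mostly Sox10 in HC. Mean scores of Sox10 were 121 in control HC and 334 in control NHC, where those of Col3a1 were 124 and 3056. Which cells the Sox10 RNA in HC came from was not tested. The 4 endothelial markers were at 11.8–20.1 and 6.23–10.9. The 4 macrophage markers summed to 4.06–5.00 and 14.5–21, a rise carried by Cd68. Its mean score was 2.43 without and 14.1 with the drug, where C1qa was at 1.35 and 1.42, C1qb at 3.64 and 4.24, and Csf1r at 1.46 or less in both. Blood markers, 4 found of 6, were at 0.627–2.22 and 0.428–14.1. From the summed mesenchyme, blood, endothelium, macrophage and glia markers, RNA of other cells was estimated at 5.05–9.68% in control HC and 2.81–3.60% in treated HC. With this share of the NHC score taken off, a step chosen after the data were seen, the median of the members in treated HC was -0.41 and 17 fell. The part of the supporting cell and hair cell markers in the result was not tested.

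The members described with the largest falls in HC belong to both subunits. Rps4x, the X-linked small subunit protein, scored 583, 577 and 526 without and 404, 343 and 348 with the drug. It was 1.54-fold lower (log2 difference -0.63, SE 0.16, adjusted p = 0.0139, limma).

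Rpl27a scored 345, 341 and 297 in control HC and 245, 199 and 209 in treated HC. Rps26, a small subunit protein that touches the mRNA, scored 248, 258 and 211, then 179, 152 and 149.6. Rplp0, the base of the ribosomal stalk on which translation factors are recruited, scored 603, 631 and 547, then 432, 349 and 420.2. In these 3 genes the treated replicates all lie under the controls, with log2 differences of -0.59, -0.58 and -0.57 and adjusted p-values of 0.0149, 0.0217 and 0.0249 (limma). Rps26 and Rplp0 were no longer past the criteria with scaling to the total, and Rplp0 not after the subtraction of other RNA either. Rps4x, Rpl27a, Rps26 and Rplp0 did not stay past the criteria without control replicate 1, control replicate 2, treated replicate 2 or treated replicate 3. Over all 6 such fits the log2 difference of Rps4x lay between -0.70 and -0.58. Among the further members that fell were Rpl10 at -0.57 and Rpl22 at -0.37.

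**Figure D2:**
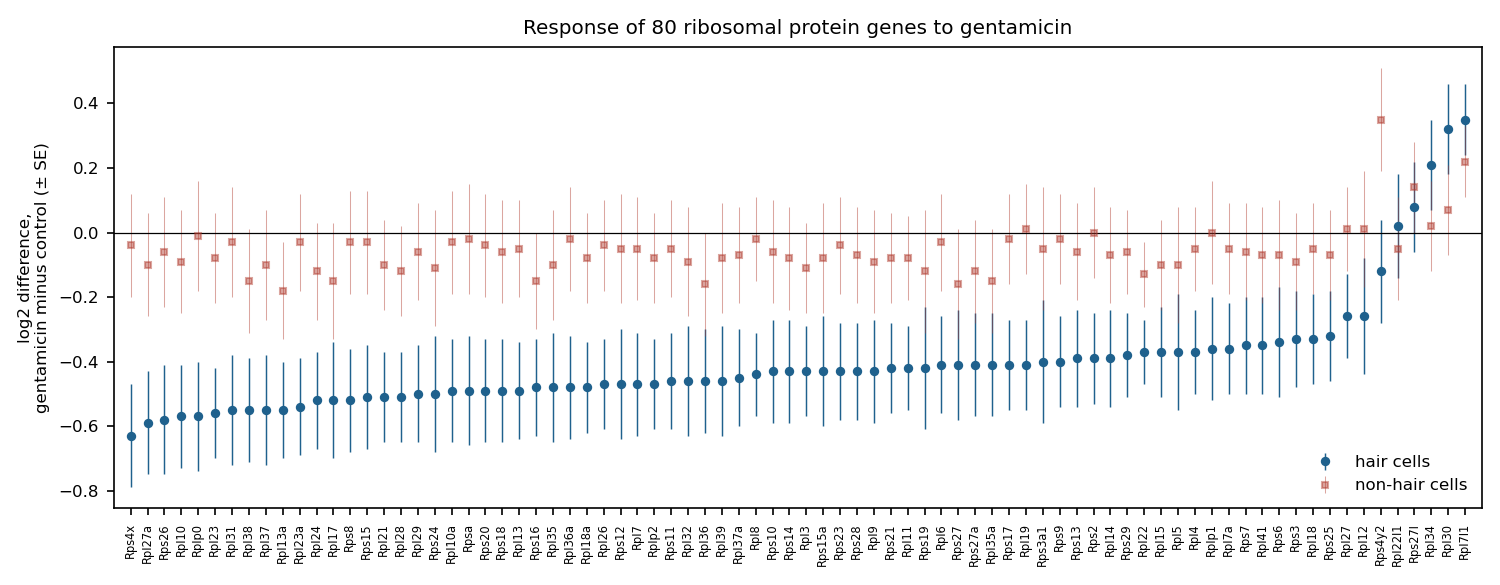
Log2 difference between gentamicin and control (y axis, ± SE) for 80 of the tested members (x axis, in the order of their HC value), in HC (blue circles) and NHC (red squares). HC values run from -0.63 in Rps4x to 0.35 in Rpl7l1, and NHC values from -0.18 to 0.35.

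A difference between the subunits was not tested. Among 48 tested large subunit genes 20 fell and 1 rose, with a median of -0.46, and among 33 small subunit genes 6 fell and 0 rose, with a median of -0.43. The acidic stalk proteins Rplp1 and Rplp2 had log2 differences of -0.36 and -0.47, and Rplp2 passed the criteria (adjusted p = 0.0236, limma). Rplp2 was 257, 253 and 226 in control HC and 192, 166 and 174 in treated HC, and its call was lost without the same 4 replicates as that of Rps4x. Rplp1 scored 505, 499 and 469.7, then 412, 353 and 389, without overlap (adjusted p = 0.112, limma). Rpsa, a small subunit protein also known as the laminin receptor, scored 712, 725 and 625, then 536, 470.4 and 460.2 (log2 difference -0.49, adjusted p = 0.0426, limma).

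Rpl19, a large subunit protein whose mRNA served as the internal reference of the quantitative PCR in the study, scored 386, 388 and 350.0 in control HC. In treated HC it scored 306, 262 and 276, all under the controls. Its log2 difference was -0.41 (SE 0.14, adjusted p = 0.0461, limma), under the adjusted threshold of 0.05 and not past the unadjusted one of 0.01. Relative to the median member it moved by 0.02, within the spread of its replicates. In NHC Rpl19 scored 790.1, 574 and 577 without and 737, 674 and 535 with the drug, which overlap (log2 difference 0.01, SE 0.14).

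The 5 members above 0 in treated HC were the paralogs Rpl7l1, Rpl22l1 and Rps27l and the low-level genes Rpl30 and Rpl34. Rpl7l1, a paralog of Rpl7 that acts in the assembly of the large subunit, was the 1 member that rose. It scored 90.6, 85.7 and 86.4 in control HC and 115, 117 and 103 in treated HC, without overlap (1.27-fold, log2 difference 0.35, SE 0.11, adjusted p = 0.0338, limma). Its unadjusted p lay just under the threshold, and Rpl7l1 was not called with a minimum of 1000 reads, with no minimum, or without 5 of the 6 HC replicates in turn.

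Rpl30 scored 13.3, 13.0 and 13.1 in control HC and 18.2, 15.4 and 15.7 in treated HC, without overlap (log2 difference 0.32, SE 0.14, adjusted p = 0.111, limma). Rpl34 scored 8.09, 5.93 and 7.50, then 8.33, 8.62 and 7.68, which overlap (log2 difference 0.21, SE 0.14). Both encode core proteins of the large subunit, and their scores here are far under those of most other members. The low values of both genes were present in all 4 groups: 5.93–11.7 for Rpl34 and 13.0–22.5 for Rpl30.

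Rpl22l1, the paralog of Rpl22, scored 74.9, 68.2 and 85.3 in control HC and 86.6, 75.6 and 69.5 in treated HC, which overlap (log2 difference 0.02, SE 0.16). Rpl22 itself fell, by 0.37 on the log2 scale. Rps27l, a paralog of Rps27 known as a p53 target, scored 28.7, 28.2 and 27.5, then 33.4, 28.9 and 27.2 (log2 difference 0.08, SE 0.14). Rpl22l1 turned to -0.06 or -0.07 without control replicate 2 or treated replicate 1, and Rps27l to -0.01 without treated replicate 1. Rpl36al, a paralog of Rpl36a outside the symbol rule, had a log2 difference of -0.02 (SE 0.09), which turned to 0.07 with scaling to the total. Rps4y2, an older symbol of Rps4l, which GENCODE annotates as a transcribed processed pseudogene, scored 23.7, 18.7 and 19.0, then 21, 17.7 and 17.5 (log2 difference -0.12, SE 0.16).

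**Figure D3:**
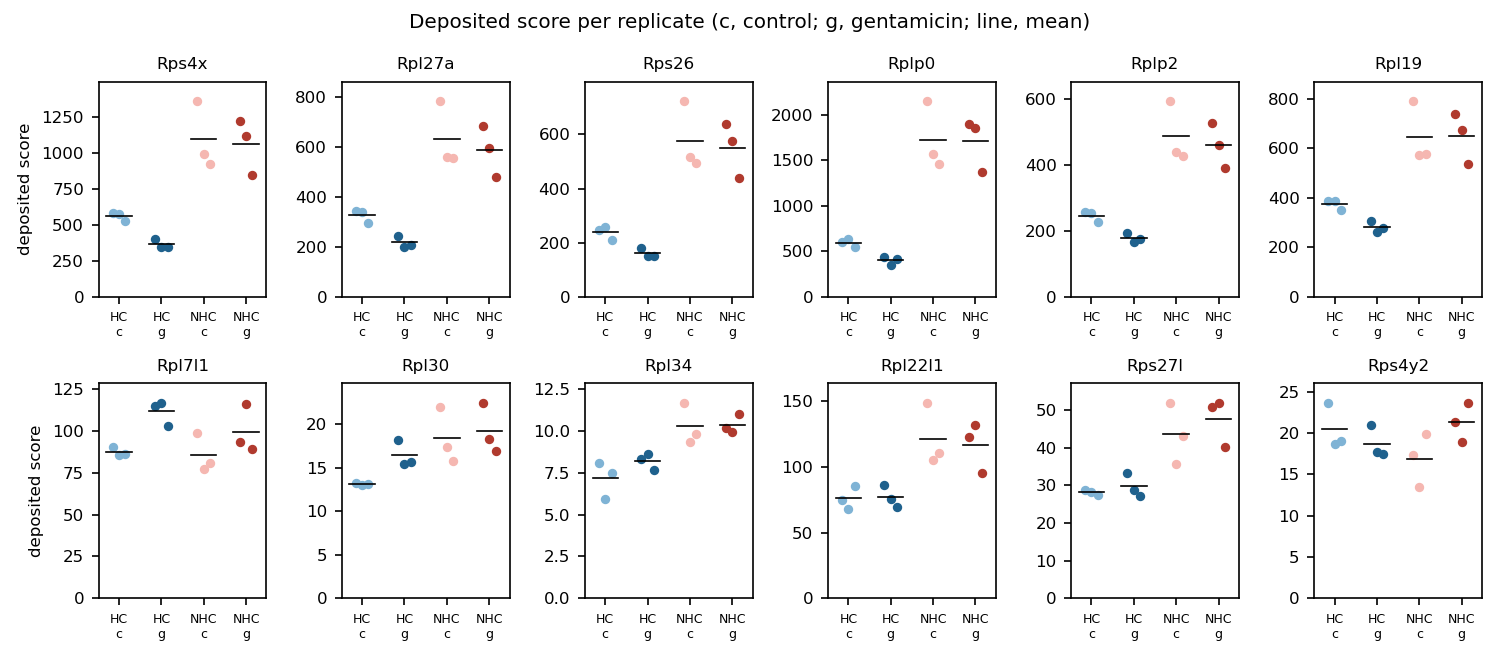
Deposited score (y axis, from 0) of 12 members in each replicate (points) of the 4 groups, with the group mean (line). The upper row holds genes whose treated HC lie under all control HC, and the lower row genes without such a fall, where in Rpl7l1 and Rpl30 all treated HC lie above the controls.

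Replicates of 1 group shifted all members together. In treated HC replicate 1, 81 of 81 members lay above their group mean, by a median of 0.17 on the log2 scale, and in control NHC replicate 1 also 81 of 81, by 0.31. In control NHC replicate 2, 81 of 81 lay under it. The median deviation of all tested genes in each of the 12 replicates was between -0.01 and 0.01. The median SD of a member between replicates was 0.0842 in control HC, 0.157 in treated HC, 0.273 in control NHC and 0.246 in treated NHC, on the log2 scale. Taken relative to the median member of the same replicate, the SDs were 0.0462, 0.0583, 0.0378 and 0.0428. For a typical member, the difference from the other members is thus measured more closely than the level. Members that did not move with the rest are exceptions. In control HC the relative SDs of Rpl7l1, Rpl30, Rpl34, Rpl22l1 and Rps27l were 0.11, 0.11, 0.30, 0.27 and 0.08. The SDs of their log2 scores were smaller, at 0.04, 0.01, 0.23, 0.16 and 0.03. In treated HC the relative SD was the larger one for Rpl7l1 and Rpl34 and the smaller one for Rpl30, Rpl22l1 and Rps27l.

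Relative to the median member, which cancels the scaling of a replicate, 16 members were lower and 11 higher in treated HC without overlap of the replicates. Taken against the same median member, 3.79% of all tested genes lay lower and 48.9% higher without overlap. Rps4x fell below the median member by 0.19 and Rpl27a by 0.16 on the log2 scale. Rpl7l1 lay higher by 0.79, Rpl30 by 0.75, Rpl34 by 0.64, Rps27l by 0.52, Rpl22l1 by 0.46 and Rps4y2 by 0.31. In all 8 of these genes the relative values of treated and control HC did not overlap.

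In NHC no member passed the criteria in either direction. Of all tested genes 3.18% were called higher and 2.26% lower. The members had a median of -0.06, against -0.01 for all tested genes, and ranged from -0.18 to 0.35. In limma 1 of the 81 had an unadjusted p under 0.05, Rps4y2, which lay higher, where 8.85% of all tested genes passed that threshold as higher. The smallest adjusted p was 0.291. In no member did the treated and control NHC replicates fail to overlap, where 10.1% of all tested genes lay higher and 7.68% lower without overlap. Rps4x scored 1359, 994 and 925 in control NHC and 1222, 1115 and 846 in treated NHC. Without control NHC replicate 1 the median of the members was 0.10, and without treated NHC replicate 1 it was -0.17, so that its sign rests on single replicates.

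The difference between the responses of HC and NHC was tested as an interaction. No member passed an adjusted p under 0.05, where 6.85% of all tested genes were called higher and 6.56% lower. The median of the members was -0.38, against -0.07 for all tested genes, and 77 of the 81 lay below 0. An unadjusted p under 0.05 was reached by 6 members in limma, all of them lower, where 17.1% of all tested genes reached it as lower. They include Rps4x (-0.59, SE 0.23, adjusted p = 0.116) and Rplp0 (-0.57, SE 0.24, adjusted p = 0.141). Without control NHC replicate 1, the replicate in which all members were high, 5 members passed, and without treated NHC replicate 3, 3 members passed. With the replicate number as a block 9 members passed as lower, where the numbers pair control HC with control NHC and not the treated with the control HC. Whether a larger fall in HC than in NHC was shown for a single member thus turned on the fit.

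Without drug, ribosomal protein mRNAs were lower in HC than in NHC. By the same criteria 73 of the 81 members were lower and 0 higher, where 37.7% of all tested genes were called lower and 28.1% higher. The median log2 difference was -0.91, against -0.12 for all tested genes, or 1.88-fold lower. An unadjusted p under 0.05 was reached by 78 members in limma, all of them lower, where 43.1% of all tested genes reached it as lower. In 78 members all control HC lay under all control NHC, against 44.6% of all tested genes. With TMM scaling the median of all tested genes moved from -0.12 to -0.02 and that of the members to -0.78. Without control NHC replicate 1 the median of the members was -0.74. Every alternative gave 67 to 78 lower members and 0 higher.

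Rps12, a small subunit protein, had the largest difference. It scored 259, 255 and 239 in control HC and 984, 668 and 737 in control NHC, a 3.13-fold lower level (log2 difference -1.65, SE 0.17, adjusted p = 3.50e-06, limma). Rps19, the small subunit gene most often mutated in Diamond-Blackfan anaemia, scored 208, 217 and 213 against 861, 558 and 549.7 (log2 difference -1.59). Rpl10, which completes the large subunit late in its assembly, scored 342, 352 and 313 against 1227, 901 and 887 (log2 difference -1.57). Rplp0 scored 603, 631 and 547 against 2148, 1566 and 1462 (log2 difference -1.52), and Rpl35a 147, 152 and 136 against 495, 346 and 341 (log2 difference -1.42). In all 5 the populations are far apart, and the first control NHC replicate is the highest.

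The members that did not pass were Rps2, Rpl4, Rpl5, Rpl7a, Rpl27, Rps7, Rpl7l1 and Rps4y2. Rps2, a protein at the mRNA entry of the small subunit, scored 1066, 1051 and 1010.1 in control HC and 1405, 1079 and 1042 in control NHC, which overlap (log2 difference -0.16, SE 0.14, adjusted p = 0.330, limma). Rpl7l1 had a log2 difference of 0.04 (SE 0.11) and Rps4y2 of 0.29 (SE 0.16). The other 5 lay between -0.36 and -0.45, without overlap. Rpl30 and Rpl34, though low, were lower in HC as well, by log2 differences of -0.47 and -0.53, and so were Rpl22l1 at -0.66 and Rps27l at -0.61.

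**Figure D4:**
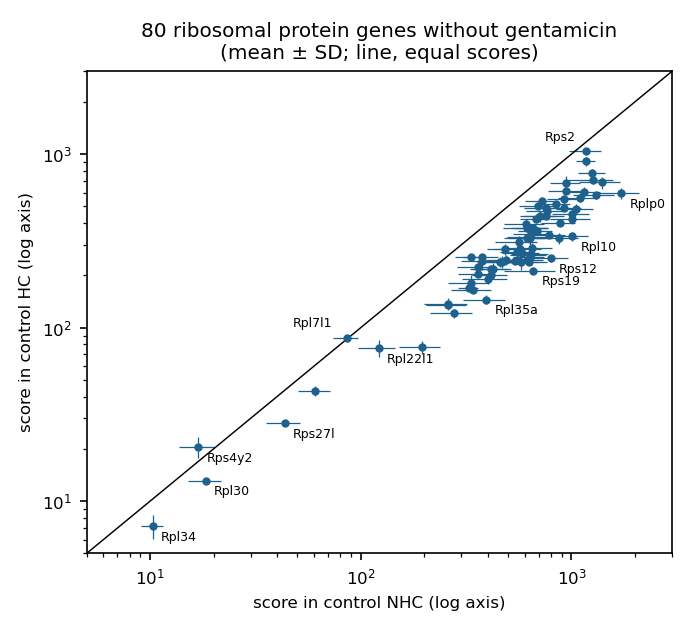
Mean score in control HC (y axis, log) against mean score in control NHC (x axis, log) for 80 of the tested members, with SD bars (n = 3) and a line of equal scores. Nearly all lie under the line, Rps12 at 251 against 796, while Rps2, Rpl7l1 and Rps4y2 lie on or near it.

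Levels between genes were compared per kilobase of transcript, as the score less 1 over the length of a GENCODE M21 principal transcript. In control HC the members spanned 12.9 to 1044 per kilobase, with a median of 389. Rps2 was the highest at 1044 ± 29.1, then Rplp1 at 983 ± 38.1 and Rpl41, the shortest ribosomal protein, at 865 ± 48.8 (SD, n = 3 each). Rps2 and Rplp1 differ by less than the sum of their SDs, and Rplp1 lies above Rpl41 by more. The lowest were Rpl34 at 12.9 ± 2.32, Rpl30 at 21.3 ± 0.214 and Rps4y2 at 24.7 ± 3.55. Rpl30 and Rps4y2 do not differ beyond their spread. The principal transcripts taken for Rps15a and Rps20 are 5130 and 3706 bases long, and their levels of 37.2 and 71.6 per kilobase depend on that choice.

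Most members share sequence with other annotated genes, many of them processed pseudogenes, and how reads with several alignments were counted is not given in the sources used here. A median of 44.5% of the 50-base windows of a member's transcript, the read length, occurred in no other annotated gene. In 6 tested members at least 90% of windows were their own, among them Rps3 with 97%, Rps15a, Rps20, Rpl8 and Rpl7l1. For Rps15a and Rps20 this share depends on the long transcripts chosen. In them 312 of 5081 and 277 of 3657 windows were shared, with 64 and 50 other genes. Of the 6, 5 lay below 0 in treated HC, with a median of -0.44, and the other 75 had a median of -0.43. Rps27 had 1.35% of windows of its own and shared the rest with 9 genes, and Rpl34 and Rpl30 had 49.4 and 23.6%. The scores of such members are uncertain where the counting divided reads between copies.

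Genes that belong with the members by function were counted from fixed lists. The shares of all tested genes to set beside these counts are the 12.7% higher and 14.8% lower in treated HC and the 3.18% higher and 2.26% lower in treated NHC given above. Among 4 genes for ribosomal proteins outside the symbol rule, 3 fell in treated HC. The 4 include Fau, made as a fusion with a ubiquitin-like protein, and Gnb2l1, which encodes Rack1, both of which fell. Rpl36al, given above, is the 1 of the 4 that was not called. Fau scored 282, 282 and 266 without and 208, 167 and 168 with the drug (log2 difference -0.62, SE 0.17, adjusted p = 0.0151, limma), and it was not past the criteria without control replicates 1 or 2 or treated replicates 2 or 3, left out in turn. Gnb2l1 scored 599, 593 and 545, then 457, 386 and 372 (log2 difference -0.52), and was not past the criteria with scaling to the total or without any one of the HC replicates other than treated replicate 1.

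Among 21 other genes with TOP mRNAs, 10 fell, 1 rose and 10 were not called in treated HC, with a median of -0.36. Eef1a1, the elongation factor that brings aminoacyl-tRNA to the ribosome, scored 4824, 4780.2 and 4457 without and 2558, 2042 and 2382 with the drug (log2 difference -1.02, SE 0.22, adjusted p = 0.00567, limma). Eef2, the elongation factor of translocation, scored 3009, 3153 and 2898, then 1736, 1675 and 1613 (log2 difference -0.85, SE 0.15). Both differences are larger in size than that of any ribosomal protein gene, a comparison that was not tested. Snhg1, a non-coding host transcript of small nucleolar RNAs with a TOP start, rose from 15.5 ± 0.220 to 35.8 ± 5.18 (SD, n = 3 each), without overlap (log2 difference 1.2, SE 0.15). In NHC 0 of the 21 rose and 1 fell.

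Of 26 chaperones and assembly factors of ribosomal proteins, 12 rose and 0 fell in treated HC, with a median of 0.30, and 8 rose and 0 fell in treated NHC, with a median of 0.20. Nle1, which acts in large subunit assembly, scored 14.2, 14.1 and 14.3 in control HC and 23.1, 24.6 and 25.8 in treated HC (log2 difference 0.79, SE 0.09, adjusted p = 1.47e-04, limma). Rrs1, which brings the 5S particle into the pre-ribosome, scored 22.8, 21.3 and 22.0, then 35.6, 39.2 and 37.2 (log2 difference 0.76, SE 0.09). The 76 mitochondrial ribosomal protein genes, whose ribosome translates mitochondrial mRNA, had a median of 0.08 in treated HC, with 14 higher and 4 lower.

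Of 24 regulators in the mTORC1 pathway and of TOP mRNAs, 4 rose and 4 fell in treated HC, shares near those of all tested genes, so that the counts show nothing particular to the list. Larp1, which binds the TOP motif, scored 224, 232 and 244 without and 149, 172 and 198 with the drug (log2 difference -0.44, SE 0.10, adjusted p = 0.00620, limma). Larp4, a protein of the same family that binds poly(A), rose from 47.9, 50.4 and 54.3 to 94.5, 115 and 95.6 (log2 difference 0.99, SE 0.09). Mlst8, a subunit of mTORC1, rose by a log2 difference of 0.43, and Sesn2, an inhibitor of mTORC1 upstream, fell by 0.70 on the log2 scale.

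Of 16 regulators of ribosomal protein gene transcription, 6 rose and 2 fell. Mycn had a log2 difference of -0.65 and Sp1 of -0.64, while Mxd1, an antagonist of Myc, had 0.63 and Gabpa, whose motif core was counted above, 0.48. Of 16 genes for ribosome quality control and stalled ribosomes, 5 rose and 1 fell: Ascc3 had 0.49, Ltn1 0.41 and Tcf25 -0.38. With the 6 HC replicates left out in turn, Gabpa and Tcf25 kept their calls in 4 fits. Mycn, Sp1, Mxd1, Ascc3 and Ltn1 kept theirs in all 6. Among 7 genes that link free ribosomal proteins to p53, 1 rose, also a share near that of all tested genes. The gene was Mdm2, the ubiquitin ligase that Rpl5 and Rpl11 bind, at 96.9, 96.1 and 93.8 in control HC and 120.3, 131 and 117 in treated HC (log2 difference 0.36, SE 0.08, adjusted p = 0.00637, limma).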

How the data were processed

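Poly(A) RNA of 12 replicates in 4 groups was sequenced as 50-base single reads. The authors trimmed the reads, aligned them to mm10 with TopHat 2 in PartekFlow and deposited a normalized read score per gene and replicate. The study's methods speak of RPKM, but the values show no division by length: the score less 1 moved in 1 step per replicate for 73.7–75.1% of low values within a tolerance of 0.02 of a step. Reads were recovered with that step, and no count model was used. How scaling factors were set is not given in the sources used here.

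Log2 scores, with the deposited offset of 1 and no further pseudocount, entered a single limma model of the 4 groups with a variance trend (limma version 3.58.1, R version 4.3.3), for genes with at least 100 recovered reads in all. Adjusted p-values are Benjamini-Hochberg values over the 16088 genes tested, and all tests are two-sided. Calls used an unadjusted p under 0.01 with a fold above 1.2, as in the study's methods, and an adjusted p under 0.05 for the interaction. The fit was first tested on simulated scores with 200 changed genes.

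The members and lists were chosen with earlier results of these data known. Named members were the 5 largest changes per contrast and direction among those called without overlap and with a mean score of at least 5, the 3 highest and 3 lowest per kilobase, the paralogs, the untested members, and Rpl19, Rplp0, Rplp1, Rplp2 and Rpsa. In the other lists the 2 largest calls per direction in HC were named. Others were named after their values were seen. Some genes that the rule names are not reported here.

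Same-numbered replicates deviated together in all 3 pairs only between control HC and control NHC (correlations 0.216, 0.316 and 0.200), which counts as pairing by the threshold of 0.1. With the number as a block 78 members were lower in control HC, against 73. Alternatives were 3 other scalings, other offsets and minimums, fits of the compared groups alone, the other call rule, and each replicate left out. A subtraction of RNA from other cells and a split by shared sequence were added after seeing the data. Sequences and annotation came from RefSeq (GRCm38.p6) and GENCODE M21. Tables were handled with pandas 2.3.3 and figures drawn with matplotlib 3.10.9.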

Additional observations from a re-analysis of the deposited data

Results flagged for a closer look

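Of the list genes described by name beside the ribosomal protein genes, 6 had a gentamicin response that differed between HC and NHC by the interaction test in limma (adjusted p under 0.05). For Snhg1 the response in HC less that in NHC was 1.44 on the log2 scale (adjusted p = 0.00350). It rose in HC and had a log2 difference of -0.24 (SE 0.15) in NHC, with 42.0, 35.3 and 30.3 in control NHC and 36.6, 27.9 and 26.8 in treated NHC. Larp4 differed by 0.94 (adjusted p = 0.00215), Nle1 by 0.58 (adjusted p = 0.0140), Mdm2 by 0.56 (adjusted p = 0.0116) and Rrs1 by 0.48 (adjusted p = 0.0343). Mdm2 also lay lower in treated NHC, with a log2 difference of -0.19 (SE 0.08), while Larp4, Nle1 and Rrs1 lay above 0 there. Sp1 differed by -0.60 (adjusted p = 0.0397), and that call was lost with scaling to the total, with no minimum of reads and with the replicate block. With the 12 replicates left out in turn, Sp1 kept its call in 3 fits and Rrs1 in 2, while the other 4 genes kept theirs in all 12. In the lists as a whole more genes passed, among them 7 higher and 2 lower of the 26 chaperones and assembly factors, where 6.85% of all tested genes were higher and 6.56% lower. No ribosomal protein gene passed in this fit. Groups of 3 replicates are too small for the outlier test, and none was run.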

How the results depend on the processing

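The count of members that fell in HC, 26 as reported, depended on the processing. It was 4 with scaling to the total of all genes and 4 with scaling to the total of genes other than the members. It was 69 with the replicate block, 70 with the compared groups alone, 45 with the adjusted p as the rule, 17 after the subtraction of RNA from other cells, and 1 to 40 with each replicate left out in turn. It was 1 without treated replicate 3, 2 without control replicate 1, control replicate 2 or treated replicate 2, and 40 without treated replicate 1. The 1 member that rose, Rpl7l1, was at 0 members with a minimum of 1000 reads, with no minimum, and without 5 of the HC replicates, a range of 0 to 1. The median of the members in HC stayed between -0.53 and -0.34 under all alternatives. In the interaction, lower members numbered 9 with the replicate block and 0 to 5 with a replicate left out, against 0. Medians and counts of the other comparisons moved by less than their spread or 1.5 times. Genes near 0 changed sign, with no call under any of these settings: Rpl22l1 between -0.07 and 0.11 and Rps27l between -0.01 and 0.14 with a replicate left out, and Rpl36al, at -0.06 and 0.02 with a replicate left out, 0.07 with both scalings to a total and 0.02 after the subtraction. The cause of these changes was not tested. Within HC the replicate numbers did not pair the samples (same-number correlations of 0.0367, 0.0522 and 0.0369), so that the block there shares only a number. Within NHC the same-number correlations were mixed, at 0.208, -0.232 and 0.683. Depth limits Rpl34, Rpl10l, Rpl39l and Rpl3l.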
